A study of Mus musculus with 12 samples.

Results

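Cd5l was followed together with the gene for LXRα, Nr1h3, and 7 established LXR target genes in RNA-Seq of cultured mouse cardiac fibroblasts after Smad7 loss. The 9 genes were Cd5l, Nr1h3, Abca1, Abcg1, Mylip, Apoe, Srebf1, Lpcat3 and Pltp, found by symbol among the 35275 genes of the deposited count table, and all 9 passed the filter on low counts that left 15150 genes for testing. Cd5l was chosen by its rise in Smad7-KO cells, so its values in the Smad7-KO comparisons are given as a description with no test. The question was whether other LXR targets rose in the same libraries. Fibroblasts came from hearts of 12-week-old C57BL/6 mice with a floxed Smad7 gene, and were used at passage 2. Smad7-KO cells were infected with adenovirus expressing Cre recombinase for 48 hours at a multiplicity of infection of 100. Control cells had the same floxed gene and received a GFP adenovirus per the labels, which the study's methods call an empty adenovirus. Cells were left unstimulated or were given 10 ng/ml TGF-β1, for 2 hours according to the sample field and 4 hours according to the treatment protocol. Each of the 4 conditions had 3 libraries. The labels call them independent samples without naming separate animals, so p values measure the spread between these libraries. The deletion took place in culture, so that cells missed by the virus would remain in the pool.

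LXRα and LXRβ are nuclear receptors that bind oxidized cholesterol and, paired with RXR, switch on genes that move cholesterol out of the cell. In macrophages the best known targets are the transporters Abca1 and Abcg1, the lipid carrier Apoe, and Mylip, whose product sends the LDL receptor for degradation. Cd5l encodes a protein secreted mainly by tissue macrophages, where LXR induces it and it favors survival. LXR also induces Srebf1, the switch for fatty acid synthesis, as well as Lpcat3 and Pltp, which remodel and transfer phospholipids.

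Libraries held 19056916 to 25371321 counts (median 22660845). Smad7 was lower in every Smad7-KO library than in the matching control libraries, at 28.4 to 31.1 CPM (counts scaled to library size) against 71.4 to 77.2 in unstimulated cells and at 70.0 to 80.8 against 141.9 to 150.3 with TGF-β1. Smad7 reads thus remained in Smad7-KO cells. Unstimulated control library 2 stood apart, with summed FPKM (counts scaled to gene length and library size) of 550300 where the other 11 libraries lay between 395000 and 463100, and control TGF-β1 library 2 deviated in the same direction across genes (r = 0.524 between their deviations from the group means, across genes, which are not independent replicates). Results that rest on these libraries are given with and without them. The comparisons below share libraries: each group of 3 enters a Smad7-KO comparison and a TGF-β1 comparison.

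Promoter windows are printed for Cd5l, which chose the set, and for Abca1 and Srebf1, the members whose windows hold a match to the motif described next. They come from RefSeq (GRCm38.p6), each from 250 bases before the transcription start to 50 after it, read along the gene. Cd5l lies on the plus strand at chr3:87357631-87357930, Abca1 on the minus strand at chr4:53159846-53160145, and the most downstream of 3 Srebf1 starts on the minus strand at chr11:60210422-60210721. Capitals mark a match to the LXR response element, a DR4 repeat spelled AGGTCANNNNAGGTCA, with at most 3 mismatches in its 12 fixed letters on either strand.
Cd5l: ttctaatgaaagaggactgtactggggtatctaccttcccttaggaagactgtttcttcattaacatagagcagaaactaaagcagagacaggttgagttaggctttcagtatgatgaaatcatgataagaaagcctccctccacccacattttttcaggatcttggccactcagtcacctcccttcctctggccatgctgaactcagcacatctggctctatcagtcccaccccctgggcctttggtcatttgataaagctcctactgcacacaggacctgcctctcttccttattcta
Abca1: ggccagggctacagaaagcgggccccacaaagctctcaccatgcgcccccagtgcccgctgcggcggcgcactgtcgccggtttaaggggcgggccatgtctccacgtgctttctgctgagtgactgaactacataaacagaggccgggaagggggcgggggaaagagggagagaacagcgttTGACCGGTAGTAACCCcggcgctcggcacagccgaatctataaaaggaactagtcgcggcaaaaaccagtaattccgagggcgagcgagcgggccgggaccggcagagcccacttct
Srebf1: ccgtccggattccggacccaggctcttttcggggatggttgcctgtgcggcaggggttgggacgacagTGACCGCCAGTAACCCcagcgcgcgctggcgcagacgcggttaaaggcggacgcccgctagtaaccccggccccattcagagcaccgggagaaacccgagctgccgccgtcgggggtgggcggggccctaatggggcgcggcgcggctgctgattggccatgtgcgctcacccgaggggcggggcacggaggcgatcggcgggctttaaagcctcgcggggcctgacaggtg
Windows were present for 8 of the 9 genes, 13 windows in all, and 2 of the 13 held such a match, those of Abca1 and Srebf1 above. The same search matched 21.9% of all 32851 windows, so a match at this tolerance is common. The capitals of Abca1 lie 67 bases before the start at chr4:53159947-53159962, and those of Srebf1 lie 182 bases before it at chr11:60210638-60210653. The closest stretch in the Cd5l window had 4 mismatches, which 76.9% of windows reach. The single half-site AGGTCA was in 16.3% of all windows and in none of the 13.

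Read along the motif, both matches shared the letters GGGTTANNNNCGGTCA. These letters were read off the members themselves. They were in 3 of the 32851 windows, and the third window belonged to Fasn, the fatty acid synthase gene, at chr11:120824757-120824772, 225 bases before its start.
Abca1 site: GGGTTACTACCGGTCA
Fasn site: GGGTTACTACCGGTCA
Srebf1 site: GGGTTACTGGCGGTCA
The Abca1 and Fasn stretches were identical. In unstimulated cells the log2 fold change of Smad7-KO against control was 1.05 (SE 0.274) for Abca1, 0.21 (SE 0.311) for Fasn and -0.08 (SE 0.0931) for Srebf1. A test of the difference between these genes was not made, and a letter match does not show binding.

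Cd5l was the most changed of the 9 genes in Smad7-KO cells. In unstimulated control libraries it was measured at 55.4, 54.7 and 39.6 CPM (1237, 957 and 938 counts), and in unstimulated Smad7-KO libraries at 217.2, 275.4 and 274.8 CPM. With TGF-β1 the values were 42.3, 41.1 and 47.0 CPM in control and 248.1, 232.4 and 272.2 CPM in Smad7-KO libraries. The lowest Smad7-KO library lay above the highest control library in both settings, and TGF-β1 left the levels overlapping within each genotype. The log2 fold change was 2.36 (SE 0.152) without stimulation, from 49.9 ± 8.96 to 255.8 ± 33.4 CPM (SD, n = 3), and 2.53 (SE 0.153) with TGF-β1, from 43.5 ± 3.12 to 250.9 ± 20.1 CPM. Leaving out any library kept these between 2.22 and 2.59. Since the libraries are bulk RNA, a larger share of Cd5l-expressing cells and more Cd5l RNA per cell cannot be told apart.

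**Figure D1:**
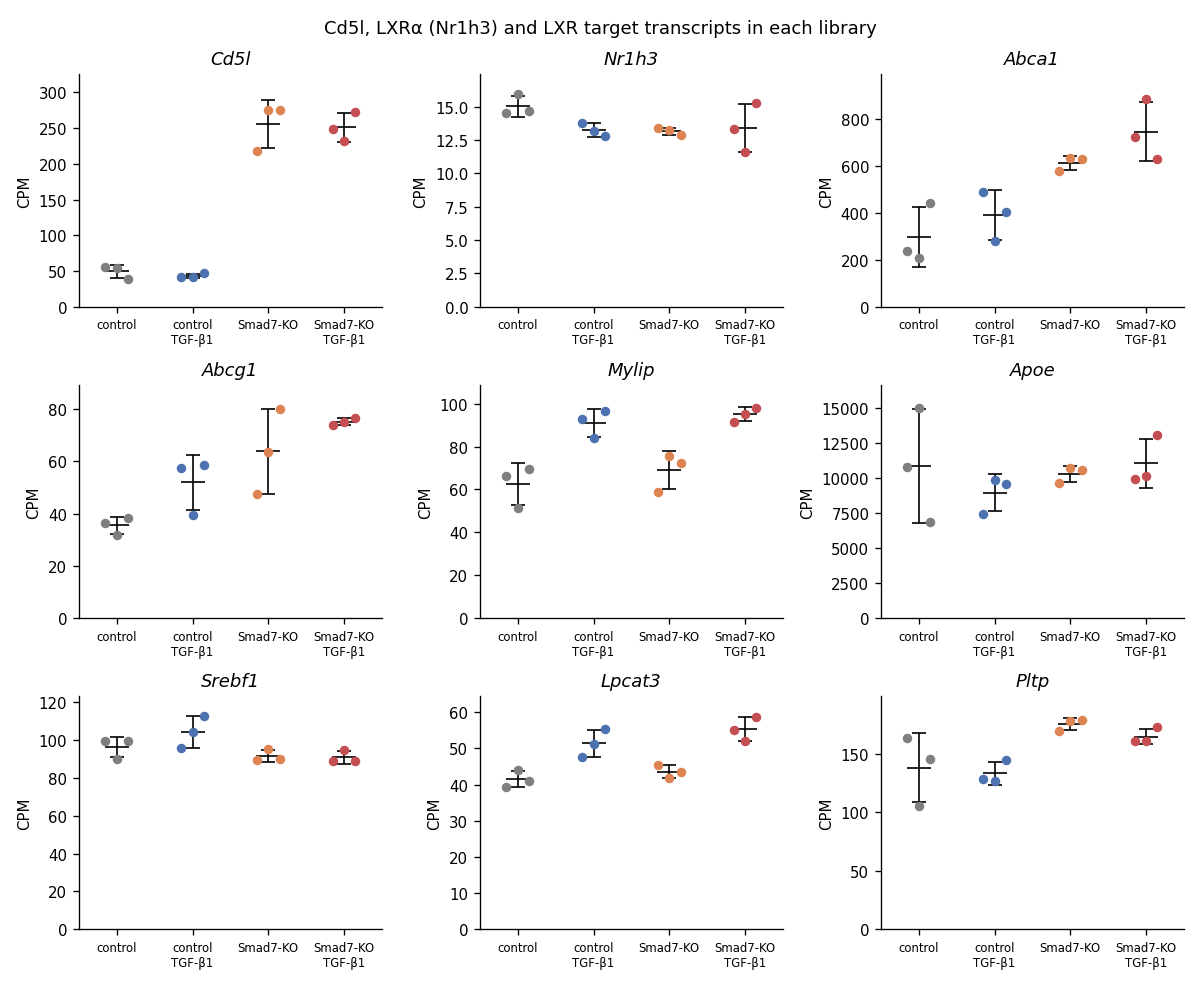
Levels of the 9 genes in each library in CPM (y axis, starting at 0), by condition on the x axis; points are libraries, bars are the mean ± SD of 3. Cd5l separates the Smad7-KO from the control libraries (lowest 217.2 against highest 55.4 CPM), Abca1 does so by less, and Nr1h3, Srebf1 and Lpcat3 stay in a narrow range.

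Per length, on the FPKM scale, Cd5l moved from the middle of the 9 genes to the second place. In unstimulated control cells the order of mean FPKM was Apoe (7666), Pltp (62.3), Abca1 (29.1), Cd5l (24.2), Srebf1 (22.4), Mylip (20.4), Lpcat3 (17.4), Abcg1 (9.82) and Nr1h3 (7.50). The libraries of Abca1, Cd5l, Srebf1 and Mylip overlapped there, as did those of Pltp with Abca1 and of Lpcat3 with Mylip. The order from Pltp to Lpcat3 is thus not resolved throughout. In unstimulated Smad7-KO cells Cd5l reached 126.7 ± 16.4 FPKM, above every library of Pltp (79.6 ± 2.33) and Abca1 (60.4 ± 2.96), while Apoe stayed first at 7488 ± 404.6 and Nr1h3 last at 6.68 ± 0.147. With TGF-β1 the mean of Cd5l was the seventh of the 9 in control cells, at 21.6 ± 1.56 FPKM, and the second in Smad7-KO cells, at 121.2 ± 9.86. In the stimulated control cells its libraries overlapped those of Srebf1 and Lpcat3, so its place beside them is not resolved.

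No rise of the transcripts of LXRα and LXRβ was detected beside that of Cd5l. Nr1h3 was measured at 14.5, 15.9 and 14.6 CPM in unstimulated control libraries and at 13.4, 13.2 and 12.8 CPM in unstimulated Smad7-KO libraries. In TGF-β1–stimulated cells it was 13.8, 13.1 and 12.8 CPM in control and 13.3, 11.6 and 15.2 CPM in Smad7-KO libraries. Smad7-KO libraries lay just below the control libraries in the first setting and overlapped them in the second, with log2 fold changes of -0.19 (SE 0.118, adjusted p = 0.224) and 0.02 (SE 0.117, adjusted p = 0.937). Nr1h2, which encodes LXRβ, was measured at 103.1 ± 11.1 CPM in unstimulated control and 98.4 ± 3.99 CPM in unstimulated Smad7-KO cells (log2 fold change -0.07, adjusted p = 0.666). Among 8 tested receptors, RXR partners and cofactors, 1 rose in unstimulated Smad7-KO cells and 0 fell, where 12.1% of all tested genes rose. That gene, Ncoa1, a coactivator of nuclear receptors named here after its value was seen, had a log2 fold change of 0.89 (SE 0.258, adjusted p = 0.0303). With TGF-β1 0 of the 8 passed in edgeR's test, where 2 had an unadjusted p under 0.05, and 1 passed in DESeq2 (Ncoa1 had 0.73, adjusted p = 0.0851, in edgeR). The call of Ncoa1 was lost without unstimulated control library 1 or 2 or any unstimulated Smad7-KO library. The median log2 fold change of the 8 was 0.47 without stimulation and 0.45 with TGF-β1, beside -0.02 and -0.02 over all tested genes. Leaving out any 1 library gave 0 to 5 of them higher in unstimulated Smad7-KO cells and 0 to 4 with TGF-β1.

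The cholesterol exporters were the members besides Cd5l that rose. Abca1, which loads cholesterol onto lipid-poor apolipoprotein, was measured at 237.0, 208.9 and 443.1 CPM in unstimulated control libraries and at 579.0, 634.9 and 630.2 CPM in unstimulated Smad7-KO libraries. With TGF-β1 it was 489.2, 280.8 and 406.0 CPM in control and 726.1, 884.9 and 632.4 CPM in Smad7-KO libraries. The groups did not overlap in either setting, and the control libraries were spread more widely than the unstimulated Smad7-KO libraries. Abca1 rose by 1.05 on the log2 scale (SE 0.274, adjusted p = 0.0205) without stimulation and by 0.93 (SE 0.273, adjusted p = 0.0453) with TGF-β1. In unstimulated cells the call was lost when control library 1 (adjusted p = 0.0692) or Smad7-KO library 1 (0.0513), 2 (0.0642) or 3 (0.0632) was left out. Leaving out a library gave unstimulated log2 fold changes of 0.86 to 1.47. The unstimulated call was also lost when edgeR used only the libraries compared. With TGF-β1 it was lost with 9 of the 12 libraries left out in turn, the largest adjusted p being 0.17, without control TGF-β1 library 2.

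Abcg1, which moves cholesterol to mature HDL, was measured at 36.3, 31.9 and 38.3 CPM in unstimulated control libraries and at 47.6, 63.6 and 80.3 CPM in unstimulated Smad7-KO libraries. The stimulated levels were 57.7, 39.6 and 58.5 CPM in control and 74.0, 75.1 and 76.6 CPM in Smad7-KO libraries. Every Smad7-KO library was above the control libraries of its setting. Abcg1 rose in unstimulated cells (log2 fold change 0.84, SE 0.19, adjusted p = 0.0109), a call lost without Smad7-KO library 3 (0.65, adjusted p = 0.0509). It was also lost when edgeR used only the libraries compared. With TGF-β1 the value was 0.54 (SE 0.188, adjusted p = 0.0847), which did not pass. The stimulated value did pass in DESeq2 (0.56, adjusted p = 0.037) and in edgeR on only the libraries compared (0.54, adjusted p = 0.0163). It also passed without unstimulated control library 2 (0.55, adjusted p = 0.0363). In the other runs it did not, and it was 0.38 (adjusted p = 0.135) without the second library of both control groups.

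Of the secreted lipid carriers, neither passed the test. Apoe, the lipid-binding apolipoprotein made in large amounts by macrophages, was measured at 10760, 14970 and 6842 CPM in unstimulated control libraries and at 9634, 10680 and 10550 CPM in unstimulated Smad7-KO libraries. After TGF-β1 it was 7425, 9829 and 9582 CPM in control and 9925, 10140 and 13010 CPM in Smad7-KO libraries. The unstimulated control libraries covered a range wider than that of the 3 other groups, and its log2 fold changes were -0.08 (SE 0.24, adjusted p = 0.817) and 0.30 (SE 0.24, adjusted p = 0.418). The first value became 0.23 when unstimulated control library 2 was left out.

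Pltp, the phospholipid transfer protein gene, was measured at 163.4, 105.6 and 146.0 CPM in unstimulated control libraries and at 169.4, 178.0 and 179.3 CPM in unstimulated Smad7-KO libraries. Under TGF-β1 it was 128.3, 127.1 and 144.7 CPM in control and 160.8, 161.3 and 172.7 CPM in Smad7-KO libraries. All Smad7-KO libraries were higher in both settings, with log2 fold changes of 0.34 (SE 0.139, adjusted p = 0.0819) and 0.31 (SE 0.139, adjusted p = 0.17). The first value was 0.19 (adjusted p = 0.153) without unstimulated control library 2, while Pltp passed without unstimulated control library 1 (0.50, adjusted p = 0.0401) or 3 (0.39, adjusted p = 0.0484). The second value passed without unstimulated control library 2 (0.32, adjusted p = 0.0101) and in edgeR on only the libraries compared (0.31, adjusted p = 0.022). It also passed without the second library of both control groups (0.28, adjusted p = 0.0457), and not in the other runs. Pltp shares 495 of its 2562 annotated exon bases with Ctsa, which lies on the opposite strand. Ctsa had log2 fold changes of 0.24 (adjusted p = 0.108) and 0.41 (adjusted p = 0.0273) in edgeR's test. Whether counting used the strand is not given in the sources used here, so reads in the shared stretch cannot be assigned with certainty.

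The remaining targets did not pass the test in Smad7-KO cells. Mylip, whose product is a ubiquitin ligase for the LDL receptor, was measured at 66.3, 51.1 and 69.6 CPM in unstimulated control and 58.7, 75.4 and 72.4 CPM in unstimulated Smad7-KO libraries, which overlapped (log2 fold change 0.14, SE 0.134, adjusted p = 0.423). In stimulated cells it was 93.0, 83.8 and 96.5 against 91.6, 95.3 and 98.1 CPM (0.06, SE 0.133, adjusted p = 0.784). The stimulated libraries were higher than the unstimulated ones in both genotypes.

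Srebf1, which encodes the lipogenic factor SREBP1, was measured at 99.5, 90.2 and 99.8 CPM in unstimulated control and 89.4, 95.1 and 89.9 CPM in unstimulated Smad7-KO libraries (log2 fold change -0.08, SE 0.0931, adjusted p = 0.534). The stimulated values were 96.1, 104.4 and 112.9 against 88.8, 95.1 and 89.1 CPM, with all Smad7-KO libraries lower (-0.20, SE 0.093, adjusted p = 0.181). Neither value passed. Lpcat3, a phospholipid-remodeling acyltransferase, was measured at 39.4 to 44.0 CPM in unstimulated control and 41.7 to 45.4 CPM in unstimulated Smad7-KO libraries, and at 47.7 to 55.3 against 52.1 to 58.7 CPM with TGF-β1. Its libraries overlapped in both settings (0.07, SE 0.0952, and 0.11, SE 0.0947, adjusted p = 0.585 and 0.475). Lpcat3 shares 334 of 3268 exon bases with Emg1 on the opposite strand. Emg1 had log2 fold changes of -0.78 (adjusted p = 0.0463) and -0.26 (adjusted p = 0.512) in edgeR's test. The part of shared reads in the values of Lpcat3 was not tested.

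Counted together, 2 of the 8 members other than Cd5l rose and 0 fell in unstimulated Smad7-KO cells. A gene counts as risen or fallen where edgeR gave it an adjusted p no larger than 0.05. Over all 15150 tested genes, 12.1% rose and 13.7% fell. In TGF-β1–stimulated cells 1 of the 8, Abca1, rose and 0 fell, where 5.72% of tested genes rose and 7.23% fell. Limma on the FPKM scale put 33% of all calls in the second comparison on the higher side, against 44.1% in edgeR. The median log2 fold change of the 8 members was 0.11 and 0.20, beside -0.02 and -0.02 over all tested genes. Without the second library of both control groups, a setting chosen after the data were seen, 2 members were called in each comparison, Abca1 and Abcg1 in unstimulated cells and Abca1 and Pltp with TGF-β1. With 3 libraries against 3, an exact permutation test cannot give a p below 0.1, so single members rest on the fit across all genes.

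**Figure D2:**
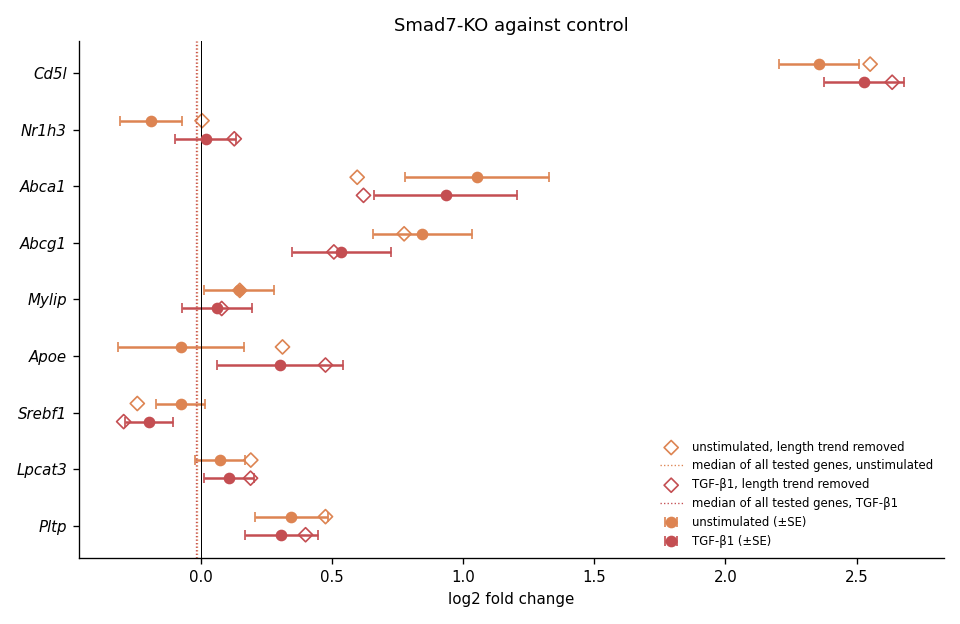
Log2 fold change (x axis) of Smad7-KO against control for each of the 9 genes (rows); filled circles with SE bars are from edgeR, open diamonds are the same after removal of the trend on gene length, and dotted lines are the medians of all tested genes. Cd5l lies at 2.36 and 2.53, Abca1 and Abcg1 between 0.54 and 1.05, and the other 6 genes between -0.20 and 0.34.

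Gene length moved with the Smad7-KO comparisons across the whole table. Of the genes called in unstimulated cells, 13.4% of those in the shortest tertile of length and 79.2% of those in the longest were higher in Smad7-KO (19.7% and 63.4% with TGF-β1). Cd5l, at 2037 bases, was in the shortest tertile, together with Nr1h3, Apoe and Pltp, and Abca1, at 10262 bases, was in the longest. After each library's trend on length was removed, Cd5l had log2 fold changes of 2.55 and 2.64, Abcg1 0.77 and 0.51, and Abca1 0.60 (SE 0.11) and 0.62 (SE 0.11), with adjusted p = 0.00171 and 0.0014 for Abca1. The unstimulated value of Abca1 was thus smaller by over 1.5 times, and remained called. In that setting Pltp also rose in unstimulated cells (0.47, adjusted p = 0.0347), Apoe rose with TGF-β1 (0.47, adjusted p = 0.0132) and Srebf1 fell in both (-0.24 and -0.30, adjusted p = 0.0448 and 0.0234).

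**Figure D3:**
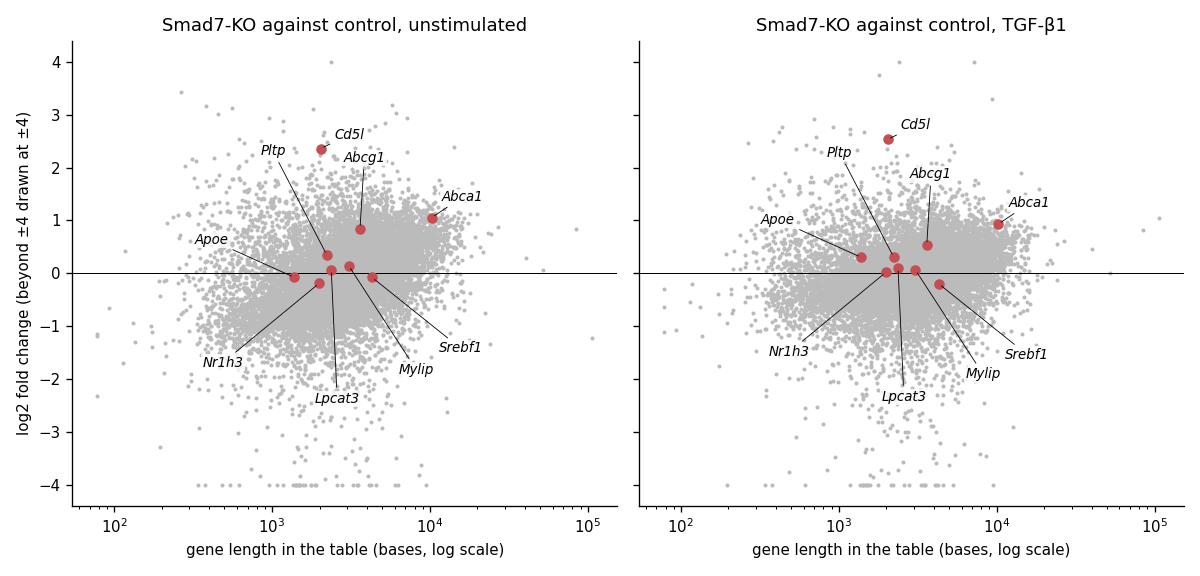
Log2 fold change of Smad7-KO against control (y axis, values beyond ±4 drawn at ±4) against gene length in bases (x axis, log scale) for all tested genes in gray and the 9 members in red, unstimulated on the left and TGF-β1 on the right. The gray cloud tilts upward with length, Abca1 sits within it at 10262 bases, and Cd5l lies above most genes of its length.

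No response of Cd5l to TGF-β1 was detected. Its log2 fold change with stimulation was -0.20 (SE 0.146, adjusted p = 0.493) in control and -0.03 (SE 0.144, adjusted p = 0.967) in Smad7-KO cells, and the interaction, the difference between the Smad7-KO effects with and without TGF-β1, was 0.17 (SE 0.205, adjusted p = 0.98). Mylip rose with TGF-β1 in both genotypes, by 0.55 (SE 0.134, adjusted p = 0.0256) in control and 0.46 (SE 0.134, adjusted p = 0.0489) in Smad7-KO cells, with every stimulated library above every unstimulated library of its genotype. Lpcat3 rose in Smad7-KO cells by 0.34 (SE 0.095, adjusted p = 0.0399). This call was lost with 9 of the 12 libraries left out in turn, all but unstimulated control library 2 or 3 and control TGF-β1 library 1, and with no filter or a replicate block (adjusted p = 0.0749). Its value in control cells was 0.31 (SE 0.0951, adjusted p = 0.0728). Abcg1 had 0.55 (SE 0.189, adjusted p = 0.114) in control and 0.24 (SE 0.187, adjusted p = 0.604) in Smad7-KO cells, and Abca1 0.40 (SE 0.272) and 0.28 (SE 0.271), with overlapping libraries for Abca1 in both. In control cells Abca1 passed without unstimulated library 3 (0.82, adjusted p = 0.0175) and Abcg1 without stimulated library 2 (0.71, adjusted p = 0.0437).

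In total 1 of 9 members rose with TGF-β1 in control cells and 2 of 9 in Smad7-KO cells, with 0 lower in either. Of all tested genes 5.04% rose and 3.33% fell in control, and 5.33% rose and 4.9% fell in Smad7-KO cells. The call of Mylip in control cells was lost without unstimulated control library 1 or control TGF-β1 library 1 or 3. In Smad7-KO cells its call was lost with 10 of the 12 libraries left out in turn, that is with any but unstimulated control library 2 or 3. None of the 9 had an interaction in edgeR's test, beside 0.0198% of all tested genes, and none had one in any alternative run.

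**Figure D4:**
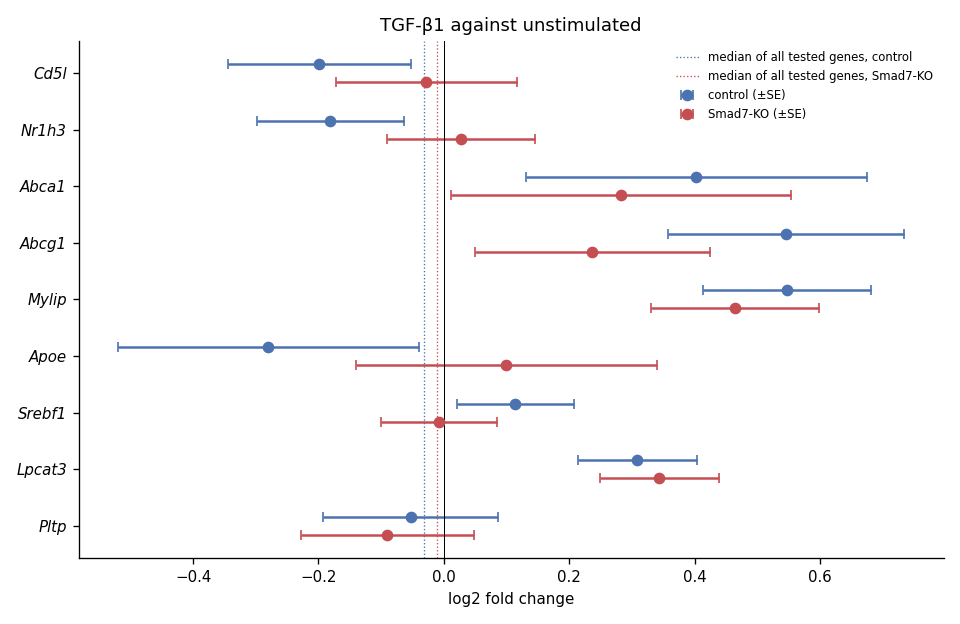
Log2 fold change of TGF-β1 against unstimulated (x axis, ±SE) for the 9 genes (rows) in control and Smad7-KO cells, with the medians of all tested genes as dotted lines. Mylip and Lpcat3 lie between 0.31 and 0.55 in both genotypes, and Cd5l lies at or below 0.

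Other LXR targets were examined in the same fit. Of 18 listed, 13 were tested, and 2 rose and 0 fell in unstimulated Smad7-KO cells, while 1 rose and 0 fell with TGF-β1 (medians 0.21 and 0.17). Of all tested genes 12.1% and 5.72% rose, so these counts are near the background. Without the second library of both control groups 4 and 2 rose, and without any 1 unstimulated Smad7-KO library 0 rose in unstimulated cells. Smpdl3a, an LXR-regulated phosphodiesterase, rose in both, from 199.3 ± 19.5 to 246.3 ± 7.76 CPM without stimulation (log2 fold change 0.31, SE 0.0943, adjusted p = 0.0375) and from 220.8 ± 10.5 to 284.0 ± 5.77 CPM with TGF-β1 (0.36, SE 0.0943, adjusted p = 0.0265). Mertk, a receptor for the uptake of dying cells, named after its value was seen, was the other call in unstimulated cells (0.99, SE 0.27, adjusted p = 0.0245). The lipogenic targets did not pass in either comparison, with unstimulated log2 fold changes of 0.21 for Fasn, 0.21 for Acaca, -0.14 for Scd1 and -0.14 for Scd2.

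Genes controlled by SREBP2, which respond to low sterol in the cell, and genes that handle sterols were examined beside them. Of 19 tested SREBP2 targets, 3 rose without stimulation and 2 with TGF-β1, and 0 fell (medians 0.19 and 0.23), again beside 12.1% and 5.72% of all tested genes. The counts were 4 and 6 without the second library of both control groups. Leaving out any 1 library gave 0 to 8 higher and 0 to 3 lower in unstimulated cells, so no unstimulated call held in every run. With TGF-β1 it gave 1 to 6 higher and 0 lower. Hmgcs1, an early enzyme of cholesterol synthesis, rose in both (0.37, SE 0.0992, adjusted p = 0.0234, and 0.49, SE 0.099, adjusted p = 0.00813), as did Dhcr7, which acts at the last step (0.56, SE 0.153, adjusted p = 0.0248, and 0.51, SE 0.152, adjusted p = 0.0494). Stard4, a sterol carrier named after its value was seen, was the third in unstimulated cells (0.42, SE 0.116, adjusted p = 0.0255).

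Sterol handling was the list with the most calls among those of the pathway. Of its 13 genes, all tested, 7 rose and 1 fell in unstimulated Smad7-KO cells, and 4 rose and 1 fell with TGF-β1 (medians 0.43 and 0.33), beside 12.1% and 5.72% of all tested genes that rose. Without the second control libraries 6 rose in each, and leaving out any 1 library gave 4 to 9 and 2 to 9. Nceh1, a hydrolase of cholesterol esters, was measured at 106.9, 95.6 and 123.8 CPM in unstimulated control and 211.2, 222.8 and 220.0 CPM in unstimulated Smad7-KO libraries (log2 fold change 1.00, SE 0.118, adjusted p = 0.000328, and 0.89, adjusted p = 0.000827, with TGF-β1). Soat1, which forms cholesterol esters, rose by 0.84 (SE 0.0994, adjusted p = 0.00033) and 0.80 (SE 0.0994, adjusted p = 0.000611), so that genes of enzymes with opposite actions on these esters both rose. Lipa, the lysosomal acid lipase gene, rose by 0.81 (SE 0.167, adjusted p = 0.00752) and 0.64 (SE 0.167, adjusted p = 0.0268). Lcat, which esterifies cholesterol on lipoproteins, fell from 3.36 ± 0.842 to 1.70 ± 0.124 CPM without stimulation (-0.97, SE 0.242, adjusted p = 0.0168) and had -0.89 (SE 0.24, adjusted p = 0.0313) with TGF-β1. The fourth riser with TGF-β1 was the scavenger receptor gene Cd36 (0.60, SE 0.143, adjusted p = 0.0181), named after its value was seen.

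Macrophage transcripts were abundant in all libraries, and some of them were higher in Smad7-KO cells. All 18 macrophage markers were tested and none was at 0 in all libraries. Of these, 8 rose in unstimulated Smad7-KO cells and 7 with TGF-β1, with 0 lower (medians 0.30 and 0.46). The other 10 and 11 did not pass. Of all tested genes 12.1% rose and 13.7% fell in unstimulated cells, and 5.72% and 7.23% with TGF-β1. Leaving out any 1 library gave 5 to 8 markers higher and 0 to 3 lower in unstimulated cells. With TGF-β1 it gave 3 to 10 higher and 0 lower, with 3 reached without control TGF-β1 library 2 or Smad7-KO TGF-β1 library 2. Without the second control libraries 8 rose in each comparison, and with the length trend removed 13 did. Their summed level was 18750 to 28970 CPM in unstimulated control, 18930 to 21860 in TGF-β1 control, 26660 to 29090 in unstimulated Smad7-KO and 26490 to 29390 CPM in TGF-β1 Smad7-KO libraries, so that the unstimulated groups overlapped. Lyz2, the macrophage lysozyme gene, had the highest level, 12410 ± 3386 CPM in unstimulated control and 14320 ± 919.4 CPM in unstimulated Smad7-KO cells (log2 fold change 0.21, adjusted p = 0.395). Itgam, an integrin gene of myeloid cells, had the largest called change (1.36, SE 0.233, adjusted p = 0.00282, and 1.02, SE 0.231, adjusted p = 0.0148). Fibroblast markers summed to 7425 to 11500 CPM in unstimulated control and 9375 to 10200 CPM in TGF-β1 control libraries. In Smad7-KO libraries their sum was 9470 to 10120 CPM without stimulation and 8662 to 8802 CPM with TGF-β1. Of these markers, all 10 tested, 2 rose and 2 fell in each comparison, beside the shares of all tested genes given above. Among them Col3a1, a fibrillar collagen gene, had the highest level (5132 ± 1117 CPM in unstimulated control), and Thy1, a surface marker of fibroblasts, had the largest called change (-1.55, SE 0.116, adjusted p = 1.32e-05, and -1.34, adjusted p = 4.47e-05). The other calls, named after their values were seen, were the matrix proteoglycan genes Dcn (0.28 and 0.36) and Lum (0.80 and 1.41), which rose, and Tcf21, a fibroblast transcription factor, which fell (-1.30 and -0.88).

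The members were also expressed per level of the macrophage markers, a scale added after the data were seen. For Cd5l these values rest on the levels that chose it and are a description. Per 1000 CPM of summed markers it was 2.26, 1.89 and 2.11 CPM in unstimulated control and 8.15, 9.49 and 9.45 CPM in unstimulated Smad7-KO libraries, and with TGF-β1 2.23, 1.93 and 2.15 against 9.37, 8.44 and 9.26 CPM. The ratio of means was 4.33 where it had been 5.13 without this scaling, and 4.29 where it had been 5.77 with TGF-β1. Against the geometric mean of the 18 markers the ratios were 4.09 and 4.18. Abca1 and Abcg1 overlapped between the groups on this scale. Per 1000 CPM of markers the ratio of means was 1.61 for Abca1 and 1.46 for Abcg1 without stimulation, where the unscaled ratios were 2.07 and 1.80, and with TGF-β1 it was 1.41 and 1.07. Division by markers that were higher in Smad7-KO cells lowers the ratio of every gene: with TGF-β1, Nr1h3 went from a ratio of 1.01 to 0.748, Mylip from 1.04 to 0.774, Srebf1 from 0.871 to 0.65 and Lpcat3 from 1.076 to 0.801. The part of macrophage content in the levels of the members was not tested.

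**Figure D5:**
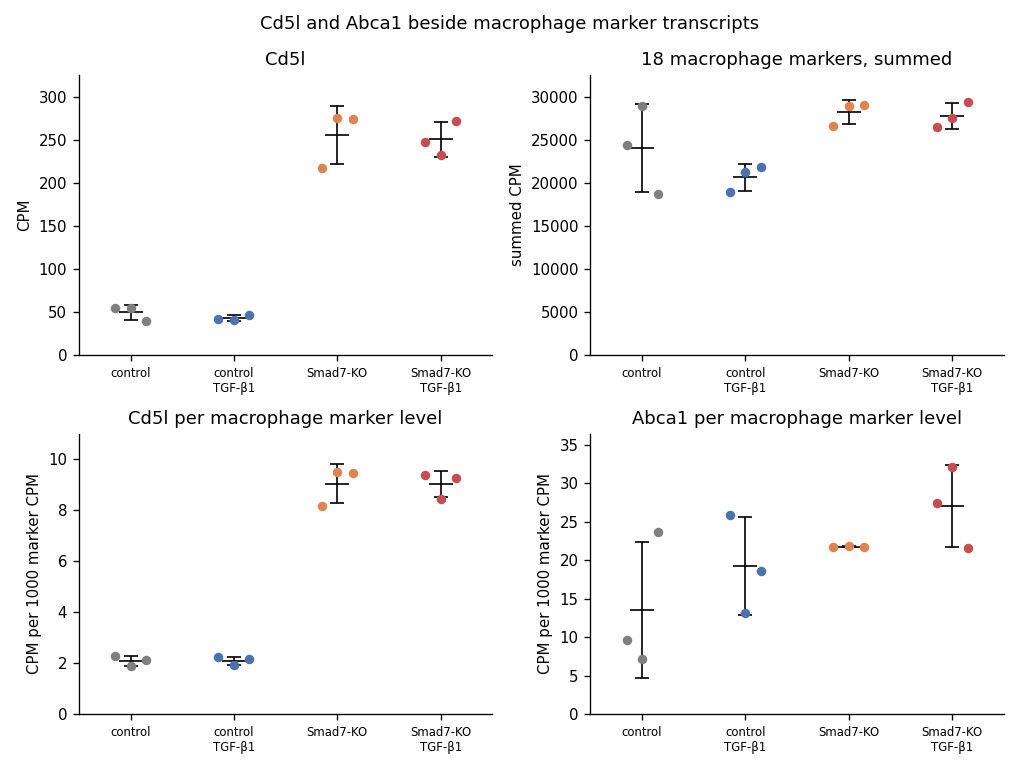
Cd5l in CPM, the 18 macrophage markers as summed CPM, and Cd5l and Abca1 in CPM per 1000 CPM of those markers (y axes, starting at 0), by condition; points are libraries and bars are the mean ± SD of 3. Cd5l per marker level separates the genotypes (1.89 to 2.26 against 8.15 to 9.49 without stimulation), whereas Abca1 per marker level overlaps.

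Markers of the tissue macrophages that are known to express Cd5l did not form one pattern. Of 8 listed, 5 were tested. Among the 5, 1 rose in unstimulated Smad7-KO cells and 0 with TGF-β1, beside 12.1% and 5.72% of all tested genes, and 0 fell. The riser, Siglec1, a sialic acid-binding receptor, was also the highest of them, at 41.2 ± 33.4 CPM in unstimulated control and 141.7 ± 4.39 CPM in unstimulated Smad7-KO cells (log2 fold change 1.78, SE 0.538, adjusted p = 0.0356) and had 1.499 (adjusted p = 0.0874) with TGF-β1. Timd4 and Clec4f, which mark resident and liver macrophages, were near 0, with means of at most 0.0496 and 0.0271 CPM in any group. The summed level of the 8 was 65.9 to 112.2 and 73.8 to 113.4 CPM in the control groups. In the Smad7-KO groups it was 169.2 to 181.6 and 189.7 to 251.3 CPM, and most of it was Siglec1 in unstimulated Smad7-KO cells. The median log2 fold change of the 5 tested genes had the other sign, -0.45 and -0.30.

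Markers of other cell types were examined as well. Of 9 tested endothelial markers, 6 fell and 1 rose in each comparison. Of all tested genes 13.7% fell and 12.1% rose in unstimulated cells, and 7.23% and 5.72% with TGF-β1. The sum of 10 endothelial markers was 273.5 to 322 CPM in control and 45.6 to 58.6 CPM in Smad7-KO libraries. Emcn, an endothelial sialomucin, went from 151.7 ± 38.1 to 4.67 ± 0.506 CPM in unstimulated cells (log2 fold change -5.02, SE 0.234, adjusted p = 3.84e-07). The gene that rose, Vwf, which encodes von Willebrand factor and was named after its value was seen, had 1.03 (SE 0.164, adjusted p = 0.00194) and 0.61 (SE 0.163, adjusted p = 0.0314). Cardiomyocyte markers summed to 17.9 to 77.7 CPM over all libraries, with 2 of 3 tested lower in unstimulated Smad7-KO cells, Tnnt2, a sarcomere protein gene, by the most (-1.37, SE 0.256, adjusted p = 0.00449), before Tnni3, named after its value was seen (-1.12, SE 0.272, adjusted p = 0.0156). With TGF-β1 0 of the 3 passed in edgeR's test and 1 had an unadjusted p under 0.05 (Tnnt2 had -0.78, adjusted p = 0.0675, and the median was -0.43). Adipocyte and hepatocyte markers, the cells in which LXR drives lipogenesis, summed to 14.03 to 53.2 CPM. Of these Ttr was at 0 in every library, and Fabp4, the only one tested, did not pass in either comparison (0.73, adjusted p = 0.0646, and 0.59, adjusted p = 0.185). The part of these cells in the members' levels was not tested.

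The genes most like Cd5l over the 12 libraries were sought among 12068 genes whose log2 CPM averaged 1 or more, by Pearson's r on that scale. The 12 libraries fall into 6 control and 6 Smad7-KO libraries, so a high r mainly reflects a gene that differs between these, and no test was made. The highest values belonged to Ctsb (0.995), a lysosomal protease, Arhgap25 (0.99), a GTPase regulator of blood cells, and Lamp1 (0.987), a lysosomal membrane protein. Next came Trav14-3 (0.979), a T cell receptor segment with near-identical copies whose reads are uncertain, Glb1 (0.978), the lysosomal β-galactosidase, and Creg1 (0.977), a lysosomal glycoprotein. Cd53 (0.976), a tetraspanin of leukocytes, Pold3 (0.976), a DNA polymerase subunit, Cyp4v3 (0.975), a fatty acid hydroxylase, and Gas6 (0.975), a ligand of the Mertk family, completed the 10.

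By Pearson's r no other LXR member was near this group. Abca1 had r = 0.77 (rank 848), Pltp 0.753 (rank 965) and Abcg1 0.746 (rank 1033), while Apoe had 0.351, Lpcat3 0.212, Mylip 0.142, Nr1h3 -0.324 and Srebf1 -0.681. The 10 leading genes depended on the measure: 2 of them, Cd53 and Gas6, were also among the first 10 by Spearman's rho, and 0 by r within the groups. By rho the 10 had 0.685 (Trav14-3) to 0.951 (Cd53 and Gas6). That range held Pltp (0.818, rank 144) and Abcg1 (0.706, rank 697), and the other members lay below it. Within the groups, where genotype and stimulation are taken out, Apoe had r = 0.752 with Cd5l and Abca1 -0.549. The 10 had -0.343 (Trav14-3) to 0.845 (Glb1) on that measure.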

How the data were processed

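Counts per gene were deposited by the authors as whole numbers without normalization, 1 column for each of 12 libraries, beside FPKM, which in the deposited table is the count divided by gene length and by the library's total (within 0.1% for all 35275 genes). The submitters' processing notes name CASAVA, TopHat2 2.0, Cufflinks 2.1.1 and HTSeq 0.6.1, with mm10 and GRCm38.p6. Polyadenylated RNA was sequenced after NEBNext Ultra library preparation, and the strand setting is not given in the sources used here. Genes were kept by filterByExpr (minimum count 10), scaled by TMM, and fitted with edgeR 4.0.16 (robust quasi-likelihood, all 12 libraries, R 4.3.3). P values were adjusted by Benjamini-Hochberg over 15150 genes, and genes at 0.05 or less were called. The standard error is the coefficient over the root of F. CPM are TMM-scaled. Lists were matched by symbol, or by gene ID for Adgre1, and were described by counts and medians. Simulated data were run through edgeR, its replicate block and length trend settings, DESeq2 and limma on log2(FPKM + 1), and not through the other settings below. Alternatives were DESeq2 1.42.0, its size factors, only the libraries compared, no filter (1 count or more), limma 3.58.1 on log2(FPKM + 1) or log2(FPKM + 0.1), a replicate block, removal of the length trend (loess span 0.3), and leaving out each library. All columns of per-sample values were used.

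The members, lists and tests were chosen with earlier results of these data known. Named genes are the 9 members, Smad7, at most 4 genes of a pathway list called in both Smad7-KO comparisons in the same direction (by mean absolute log2 fold change), the highest and the most changed called marker of each cell type with any at 0 in all libraries, and the 10 genes most like Cd5l. Library totals of 19056916 to 25371321 counts put no member near the filter. With 3 libraries per group the number of libraries, not only depth, bears on precision. Promoters came from RefSeq.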

Additional observations from a re-analysis of the deposited data

How the results depend on the processing

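Cd5l kept its direction in both Smad7-KO comparisons in every alternative, between 2.22 and 2.64 on the log2 scale, and its unstimulated value moved beyond the spread between libraries only with the length trend removed (2.55). The number of members called moved with the processing. In unstimulated Smad7-KO cells, where Cd5l is not counted, it was 2, but 0 with only the libraries compared and 4 with the length trend removed. With TGF-β1 it was 1, but 0 with no filter, with each limma setting and with the replicate block, 2 with DESeq2 and without the second library of both control groups, and 3 with only the libraries compared and with the length trend removed. For TGF-β1 in control cells it was 1, but 0 with only the libraries compared and in limma with no filter, and 2 in DESeq2, in limma with a filter, with the length trend removed and without the second control libraries. For TGF-β1 in Smad7-KO cells it was 2, but 1 in limma with a filter and 0 with no filter, in limma with no filter and with the replicate block. Leaving out a library gave 0 to 3, 0 to 3, 0 to 2 and 0 to 2 in these comparisons. Over all genes, edgeR on only the libraries compared called 256 higher and 404 lower in unstimulated Smad7-KO cells, against 1827 and 2080 with all libraries, and 2281 and 2172 with TGF-β1, against 866 and 1096. Without unstimulated control library 3 it called 4041 and 3938 in unstimulated cells. Correlations of deviations between libraries of the same number lay from -0.357 to 0.083 apart from 0.524 between the control libraries 2. Libraries of the same number thus showed no strong common deviation apart from that pair, which cannot exclude a pairing of the samples by number.

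Among single members, 863 of 981 recomputed values kept direction and call, 53 lost the call, 20 gained it and 44 changed sign, all 44 in members that had not passed the test. Values that had not passed could keep this state without effort, so the calls made are also given alone. Of 22 runs each, Abca1 kept its call in 17 in unstimulated Smad7-KO cells and in 8 with TGF-β1. Abcg1 kept its call in unstimulated Smad7-KO cells in 20. For TGF-β1, Mylip kept its call in 17 in control cells and in 7 in Smad7-KO cells, where Lpcat3 did in 10. With the length trend removed, Nr1h3 and Apoe in unstimulated Smad7-KO cells became 0.003 and 0.31, and the interactions of Abca1 and Lpcat3 0.024 and -0.001. In limma, Apoe in unstimulated Smad7-KO cells became 0.016, Nr1h3 in Smad7-KO with TGF-β1 -0.028 or -0.032, Nr1h3 under TGF-β1 in Smad7-KO cells -0.014 or -0.017, and the interaction of Lpcat3 -0.028 or -0.030. Srebf1 under TGF-β1 in Smad7-KO cells became 0.003 in DESeq2 and with only the libraries compared, 0.001 with DESeq2's size factors and 0.010 without the second control libraries, where Apoe in unstimulated Smad7-KO cells became 0.22 and the interaction of Pltp 0.103. Leaving out a library gave -0.32 to 0.23 for Apoe in unstimulated Smad7-KO cells and -0.074 to 0.111 for Nr1h3 in Smad7-KO with TGF-β1. Under TGF-β1 it gave -0.522 to 0.023 for Apoe and -0.215 to 0.087 for Pltp in control cells, and in Smad7-KO cells -0.133 to 0.028 for Cd5l, -0.077 to 0.12 for Nr1h3, -0.039 to 0.171 for Apoe and -0.039 to 0.021 for Srebf1. For the interaction it gave -0.534 to 0.092 for Abca1, -0.186 to 0.054 for Mylip, -0.016 to 0.09 for Lpcat3 and -0.183 to 0.137 for Pltp. Leaving out a library gave 5 to 8 and 3 to 10 macrophage markers, and 4 to 9 and 2 to 9 sterol handling genes, higher in unstimulated and TGF-β1–stimulated Smad7-KO cells. Macrophage markers lower in these runs numbered 0 to 3 in unstimulated cells and 0 with TGF-β1. The causes were not tested.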

Other observations

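The genes below come from the lists and responded to TGF-β1. Those other than Cd36 did not pass the test for Smad7 loss, and all were named after their values were seen. Lpl, the lipoprotein lipase gene and an LXR target, went from 474.2 ± 150.2 to 152.8 ± 4.42 CPM (SD, n = 3) in control cells and from 445.4 ± 56.8 to 187.1 ± 19.4 CPM in Smad7-KO cells. All stimulated libraries were lower than the unstimulated ones, with log2 fold changes of -1.63 (SE 0.192, edgeR adjusted p = 0.000218) and -1.25 (SE 0.19, adjusted p = 0.00112). Arl4c, a small GTPase and LXR target, rose from 132.2 ± 4.42 to 218.8 ± 11.4 CPM in control cells and from 145.8 ± 12.2 to 266.9 ± 3.11 CPM in Smad7-KO cells (0.73, SE 0.0906, adjusted p = 0.00033, and 0.87, SE 0.0907, adjusted p = 7.15e-05). Lpl thus fell and Arl4c rose in the same stimulated libraries.

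Spic, a transcription factor of iron-recycling macrophages, fell from 8.18 ± 0.575 to 1.03 ± 0.55 CPM in control cells and from 5.50 ± 0.924 to 0.744 ± 0.361 CPM in Smad7-KO cells, with log2 fold changes of -2.97 (SE 0.37, adjusted p = 0.000348) and -2.86 (SE 0.385, adjusted p = 0.000506). Cd36, a scavenger receptor for oxidized lipids, fell with TGF-β1 in both genotypes (-0.55, SE 0.143, adjusted p = 0.0356, and -0.71, SE 0.143, adjusted p = 0.00732) and was higher in Smad7-KO cells in both settings (0.77, adjusted p = 0.00444, and 0.60, adjusted p = 0.0181).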
